A study of Mus musculus with 5 samples.

Results

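The MHC class II genes described here are the classical chain genes H2-Aa, H2-Ab1 and H2-Eb1, the invariant chain gene Cd74, the H2-DM genes H2-DMa, H2-DMb1 and H2-DMb2, the H2-O genes H2-Oa and H2-Ob, and Ciita, the gene of their shared transcriptional coactivator. They were chosen by symbol, with no value as a criterion but with earlier results of these data known, and are 10 of the 39179 genes in the deposited tables. All 10 had reads in every library and all 10 passed the filter on low values (1 or more CPM on average over the libraries, CPM being reads scaled to 1000000 per library). The study sequenced polyA RNA of mouse cells selected with antibody beads against CD71, the transferrin receptor carried by erythroid precursors, in 5 libraries. The tumor group was 2 spleen libraries of mice bearing B16, a melanoma line, injected under the skin, with strain labels C57BL/7 and C57BL/8. The UVB group was 2 spleen libraries of C57BL/6 mice given UVB at 50 mJ/cm2 on the skin, and the control was 1 bone marrow library of untreated C57BL/6 mice. Taken as labelled, strain and tumor cannot be told apart. With no spleen library of untreated mice, organ and treatment cannot be told apart in either comparison with the control. The labels state no further allele, no age and no pooling of animals, and nothing in them ties the libraries of a group to different animals. The p-values thus reflect the variation among these samples alone, and that variation may be technical.

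Depth ran from 5003923 to 5921270 reads in genes per library, and 1 read was worth between 0.168 and 0.198 CPM. The erythroid label was checked on 16 marker genes, all of which had reads in every library. Their summed level was 7023 and 6274 CPM in the tumor libraries, 7171 and 6829 CPM in the UVB libraries and 6345 CPM in the control, and none passed the test in any comparison. The highest read density of any gene with at least 200 exon bases was between 0.955 and 1.14 reads per base in each library, and whether this narrow range evened out the erythroid sums was not tested. Genes of other blood cells were also present in the same libraries. B cell markers, 15 genes, summed to 730 and 2122 CPM in the tumor libraries, 3073 and 2892 CPM in the UVB libraries and 1630 CPM in the control. The tumor libraries stood apart from each other in these sums, with tumor 1 the lowest of the 5 for B cell, macrophage and class II genes.

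MHC class II molecules are pairs of an alpha and a beta chain that display peptides from endocytosed protein to CD4 T cells. The invariant chain encoded by Cd74 fills their groove and guides them to endosomes, H2-DM exchanges its remnant for other peptides, and H2-O inhibits H2-DM. Ciita binds no DNA itself: it is recruited by RFX, CREB and NF-Y proteins that sit on the paired X and Y boxes of class II promoters. In spleen and bone marrow these genes are known chiefly from B cells, dendritic cells and macrophages, and in C57BL/6 mice a deletion silences the alpha chain gene H2-Ea, so that H2-Eb1 has no partner chain.

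Promoters, taken as the 250 bases before to 50 bases after each gene start, were read from RefSeq (GRCm38.p6), and 7 of the 10 members matched, all but H2-Ab1, Cd74 and Ciita. The windows of 53 bases below carry the letters searched for and let the promoters be compared by eye; H2-Eb2, a class II beta gene beside H2-Eb1, is added for comparison. No window is shown for H2-DMa, which has 2 promoters. Neither held an X box core, and 1 held no Y box. The windows are written 5′ to 3′ on the strand of the gene. Capitals mark the Y box ATTGG and, before it, a match to the X box core. The match is exact in the lines of H2-Eb1, H2-DMb1 and H2-Eb2 and not exact in those of H2-DMb2 and H2-Ob. In the windows of H2-Aa and H2-Oa only the Y box matched the letters searched for. X boxes with more than 1 mismatch to the core were not searched for.
H2-Eb1: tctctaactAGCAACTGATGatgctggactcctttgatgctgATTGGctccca
H2-DMb1: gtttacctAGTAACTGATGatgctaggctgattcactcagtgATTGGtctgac
H2-DMb2: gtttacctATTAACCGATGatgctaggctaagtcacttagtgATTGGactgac
H2-Ob: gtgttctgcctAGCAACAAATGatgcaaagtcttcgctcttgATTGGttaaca
H2-Aa: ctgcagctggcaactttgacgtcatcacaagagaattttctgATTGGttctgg
H2-Oa: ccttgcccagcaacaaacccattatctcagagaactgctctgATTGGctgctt
H2-Eb2: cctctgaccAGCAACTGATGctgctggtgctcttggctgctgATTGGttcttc

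The windows lie at chr17:34305766-34305818 for H2-Eb1, chr17:34153088-34153140 for H2-DMb1, chr17:34145117-34145169 for H2-DMb2, chr17:34238806-34238858 for H2-Ob, chr17:34287861-34287913 (minus strand) for H2-Aa, chr17:34092294-34092346 for H2-Oa and chr17:34325533-34325585 for H2-Eb2. An exact X box core followed by a Y box, with 28 to 42 bases between their starts, was found at H2-Eb1, H2-DMb1 and H2-Eb2. Only 19 of 32851 promoters (0.0578%) held such a pair. With 1 mismatch allowed in the X box core, a setting chosen after the promoters had been read, H2-DMb2 and H2-Ob also held it, against 1.06% of all promoters. The Y box by itself is common, at 37.4% of promoters on either strand, and stood in 7 of the 8 member promoters (H2-DMa has 2, and 1 of them lacks it). The X box core by itself was in 4.61% of promoters on either strand, and among the members in those of H2-Eb1, H2-DMb1 and H2-Oa. At H2-Oa it formed no pair with a Y box at the spacing given above. The promoters of H2-DMb1 and H2-DMb2, neighbouring copies of the H2-DM beta gene, had their boxes at the same spacing of 34 bases. These matches describe letters in a window and not binding.

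The members' loci (GRCm38) cluster on chromosome 17, where H2-Oa lies at chr17:34092340-34095234 and H2-DMa at chr17:34119541-34139101. H2-DMb2 lies at chr17:34143307-34151555 and H2-DMb1 next to it at chr17:34153072-34160230. H2-Ob lies at chr17:34238903-34254414, H2-Ab1 at chr17:34257689-34269419, H2-Aa on the minus strand at chr17:34282744-34287823 and H2-Eb1 at chr17:34305867-34316674. Outside that cluster Cd74 lies at chr18:60803848-60812652 and Ciita at chr16:10480059-10528418.

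The 3 classical chain genes and Cd74 were highest in the UVB libraries and lowest in tumor 1. H2-Ab1, the beta chain of I-A, had 83.6 and 155 CPM in the tumor libraries, 224 and 202 CPM in the UVB libraries and 103 CPM in the control. H2-Aa, its alpha chain, had 76.5 and 149.6 CPM in the tumor libraries, 193 and 173 CPM in the UVB libraries and 95.4 CPM in the control. H2-Eb1, the I-E beta chain, had 71.0 and 140.35 CPM in the tumor libraries, 181 and 159 CPM in the UVB libraries and 79.9 CPM in the control. In each of these genes both UVB libraries lay above the other 3, and the tumor libraries lay on either side of the control. The chains kept similar proportions: the reads of H2-Aa over those of H2-Ab1 were 0.915 and 0.964 in the tumor libraries, 0.860 and 0.855 in the UVB libraries and 0.930 in the control. Cd74 had 128 and 195 CPM in the tumor libraries, 258 and 229 CPM in the UVB libraries and 153 CPM in the control, which was the same order of libraries.

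**Figure D1:**
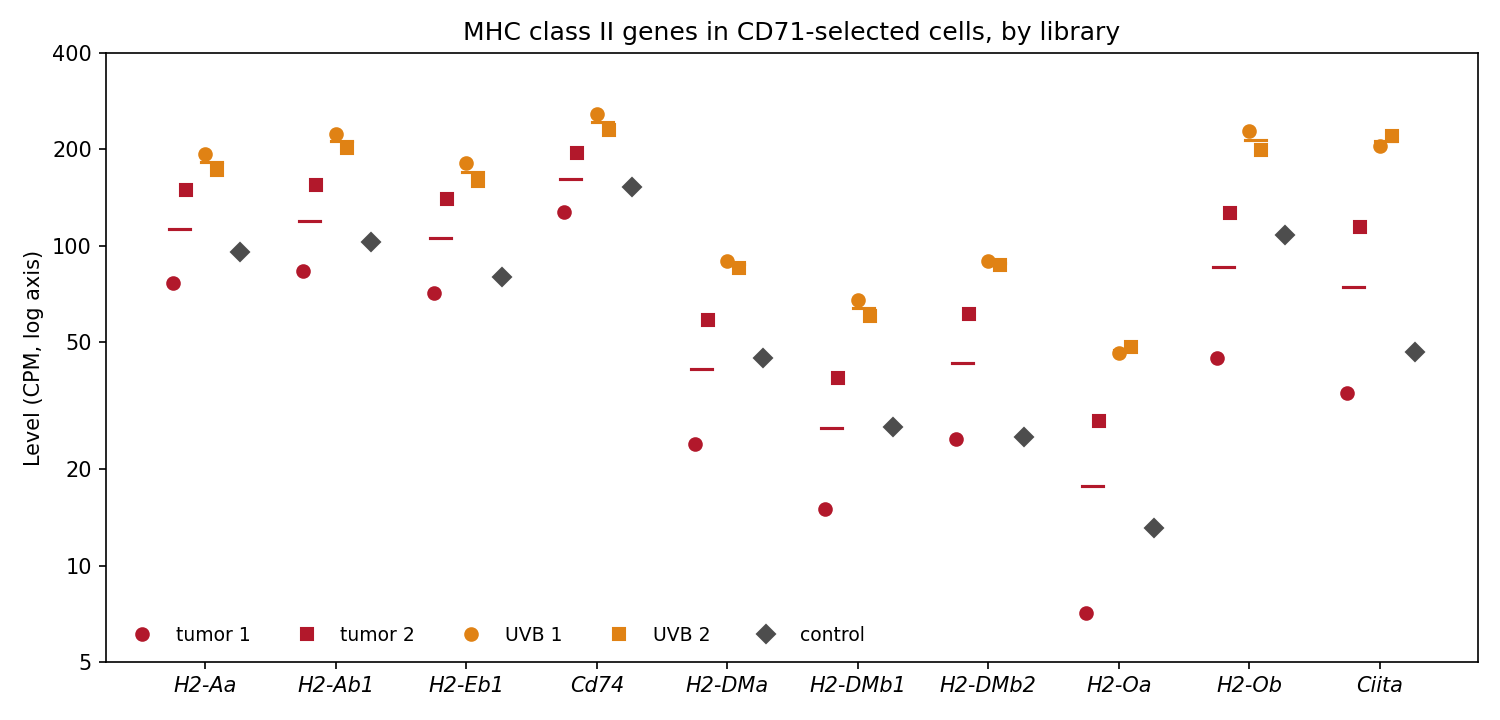
Level of each of the 10 genes in CPM (log axis) in tumor 1, tumor 2, UVB 1, UVB 2 and the control; points are libraries and short bars are group means. The UVB libraries lie above the other libraries in all 10 genes, tumor 2 lies above the control and tumor 1 below it.

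The genes of the editing molecule H2-DM followed the same order, with a wider gap between the tumor libraries. H2-DMa, the alpha chain, had 23.9 and 58.6 CPM in the tumor libraries, 89.8 and 85.4 CPM in the UVB libraries and 44.6 CPM in the control. H2-DMb1, a beta chain, had 15.1 and 38.7 CPM in the tumor libraries, 67.4 and 60.1 CPM in the UVB libraries and 27.03 CPM in the control. H2-DMb2, the other beta chain, had 24.8 and 61.0 CPM in the tumor libraries, 89.8 and 86.9 CPM in the UVB libraries and 25.3 CPM in the control. The control therefore stood close to tumor 1 for H2-DMb2, and between the tumor libraries for H2-DMa and H2-DMb1.

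The beta chain genes of H2-DM split their reads differently in the control. H2-DMb2 took 62.3% (139 of 223 reads, 95% exact Clopper-Pearson interval 55.6 to 68.7%) and 61.2% (336 of 549 reads, 57.0 to 65.3%) in the tumor libraries. It took 57.1% (452 of 791 reads, 53.6 to 60.6%) and 59.2% (517 of 874 reads, 55.8 to 62.4%) in the UVB libraries, and 48.3% (144 of 298 reads, 42.5 to 54.2%) in the control. All 4 spleen libraries lay above the control, whose interval reached into that of UVB 1. The intervals cover counting error only, the control is a single library, and the genes are close copies whose reads the counting could have divided unequally, so the split is uncertain.

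**Figure D2:**
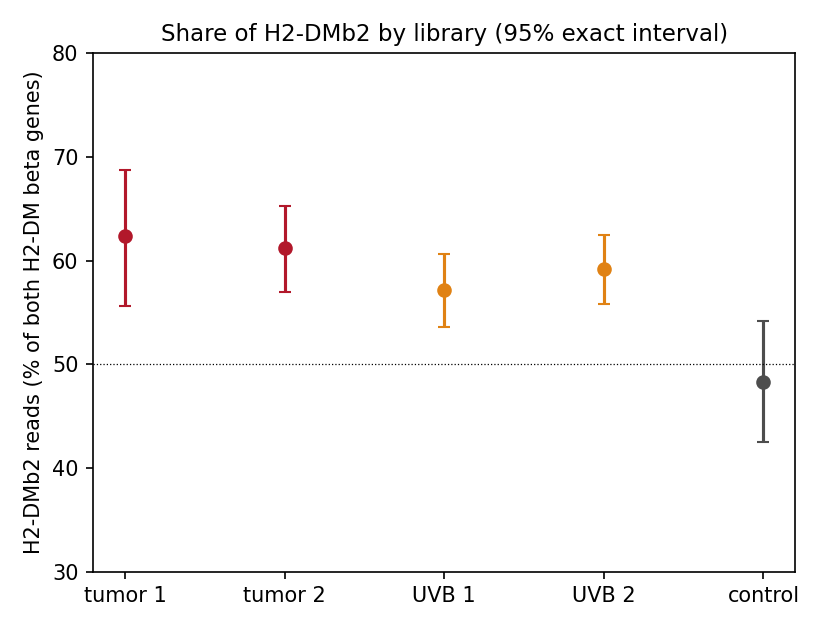
Share of H2-DMb2 among the reads of H2-DMb2 and H2-DMb1 in the tumor, UVB and control libraries, in percent; bars are 95% exact intervals of counting error and the dotted line marks 50%. The tumor and UVB libraries lie between 57.1% and 62.3%, above the control at 48.3%.

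Of the H2-O genes, H2-Oa had the widest gap between the tumor libraries in this set. H2-Oa, the alpha chain of the H2-DM inhibitor, had 7.10 and 28.4 CPM in the tumor libraries, 46.2 and 48.2 CPM in the UVB libraries and 13.1 CPM in the control. H2-Ob, its beta chain, had 44.5 and 126 CPM in the tumor libraries, 228 and 199 CPM in the UVB libraries and 108 CPM in the control. The paired genes differed most in the control: H2-Oa made up 13.5% and 18.3% of the H2-O reads in the tumor libraries, 16.8% and 19.4% in the UVB libraries and 10.7% in the control. The exact intervals were 9.78 to 17.98% in tumor 1 and 8.49 to 13.2% in the control, which overlap, while those of tumor 2 and both UVB libraries lay above the control's. These intervals cover counting error only and the control is a single library, so they do not test a difference between groups.

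Ciita, the coactivator, showed the largest UVB to control ratio of the set. It had 34.6 and 114 CPM in the tumor libraries (74.3 ± 56.1, SD, n = 2), 205 and 219.6 CPM in the UVB libraries (212 ± 10.5, SD, n = 2) and 46.4 CPM in the control. UVB 1 and UVB 2 lay above every other library, and tumor 1 was again the lowest. Ciita was not a fixed share of the genes it switches on: its reads over those of Cd74 were 0.270 and 0.585 in the tumor libraries, 0.793 and 0.958 in the UVB libraries and 0.303 in the control. Over H2-Ab1 the ratio was 0.413 and 0.734 in the tumor libraries, 0.914 and 1.09 in the UVB libraries and 0.451 in the control. Whether the narrow range of read densities affected these ratios was not tested. Nor was the part of Dexi, a gene that shares exon bases with Ciita on the other strand.

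The order of the libraries was the same in all 10 genes: both UVB libraries, then tumor 2, then the control, then tumor 1. Of all 15006 genes tested, 964 (6.42%) had this order. The UVB libraries lay closer to each other than the tumor libraries did, with a higher over lower ratio between 1.03 for H2-DMb2 and 1.14 for H2-Ob. UVB 1 was the higher in 8 of 10 genes, the exceptions being H2-Oa and Ciita. Between the tumor libraries the ratio ran from 1.53 for Cd74 to 4.0 for H2-Oa, with 3.29 for Ciita and 2.84 for H2-Ob. The tumor libraries bracketed the control in every gene, so the tumor group and the control did not differ beyond the spread.

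UVB spleen cells were compared with control bone marrow cells to set the spleen of mice with irradiated skin beside the marrow of untreated mice. The UVB mean was 4.57 times the control value for Ciita, 3.61 times for H2-Oa and 3.49 times for H2-DMb2. It lay between 1.92 and 2.36 times for the classical chains, H2-DMa, H2-DMb1 and H2-Ob, and was smallest, 1.59 times, for Cd74. Both UVB libraries lay above the control in 10 of 10 genes, against 34.8% of all genes, and below it in 0 of 10, against 47.9%. In limma fitted to log2(CPM + 1) of all 5 libraries, 0 of 10 members passed an adjusted p of 0.05, where 2.33% of all genes did, 0.180% as higher and 2.15% as lower in UVB. At an unadjusted p under 0.05 the count was 3 (H2-Ab1, H2-DMb2 and Ciita), against 15.2% of all genes, and edgeR on the recovered whole reads called 0, with 5 under 0.05 unadjusted, against 13.9%. Ciita had a log2 fold change of 2.17 ± 0.70 (SE) with a limma adjusted p of 0.269, and H2-DMb2 one of 1.77 ± 0.54 with 0.247. The median log2 fold change of the members was 1.06, against -0.06 for all genes tested. The spread in this fit came from both spleen groups, and most of it from the tumor pair in these genes: without tumor 1, 10 of 10 members passed (highest limma adjusted p 0.00628), and without tumor 2, 10 of 10 passed (highest 0.00573), on the assumption that the control would vary like the UVB pair. Of all genes, 9.08% passed as higher in UVB without tumor 1 and 8.97% without tumor 2.

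Tumor spleen cells were compared with UVB spleen cells to set the treatments side by side in the same organ, with strain labels that also differ. The tumor mean was below the UVB mean in all 10 genes, from 0.350 times the UVB value for Ciita, 0.376 times for H2-Oa and 0.40 times for H2-Ob to 0.662 times for Cd74. Both tumor libraries lay below both UVB libraries in 10 of 10 genes, against 34.8% of all genes, and above them in 0 of 10, against 38.4%. By limma 0 of 10 members passed, where 17.0% of all genes did, 12.3% as higher and 4.70% as lower in tumor. Ciita came nearest, with a log2 fold change of -1.74 ± 0.57 (SE) and an adjusted p of 0.0952, followed by H2-DMb1 at -1.36 ± 0.46 and 0.0990. Unadjusted, 6 members were under 0.05, against 42.2% of all genes, and edgeR called 0 with 7 under 0.05 unadjusted, against 39.6%. The median log2 fold change was -1.18, against 0.01 for all genes. Of all genes, 1852 passed as higher and 705 as lower in tumor, and with TMM scaling 1544 and 1020, with the members at 0 called under both. When a spleen library is left out, 1 library of its group remains, and the spread is that of the other spleen pair alone. The counts that follow thus describe the dependence on the library kept and do not test a difference between groups. Without tumor 1, 7 members passed as lower, all but H2-Aa, H2-Eb1 and Cd74, and without tumor 2, 10 of 10 passed (highest limma adjusted p 0.000409). Of all genes, 18.0% passed as lower without tumor 1 and 27.2% without tumor 2. Without UVB 1 or without UVB 2, 0 of 10 members and 0 of all genes passed.

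Tumor spleen cells against control bone marrow cells gave no common direction. The log2 fold changes ran from -0.52 for H2-Ob to 0.61 for H2-DMb2, 7 of them above 0 and 3 (H2-DMa, H2-DMb1 and H2-Ob) below, with a median of 0.14 against -0.01 for all genes. By limma 0 of 10 passed (adjusted p between 0.536 and 0.939), where 3.79% of all genes did, 1.20% as higher and 2.59% as lower in tumor, and by edgeR 0 passed, with 0 under an unadjusted 0.05 by either tool, against 24.5% of all genes by limma and 22.7% by edgeR. No member had both tumor libraries above the control or both below, which 39.3% and 37.9% of all genes did. The result depended on the library kept: without tumor 1, 6 members passed as higher in tumor (H2-Aa, H2-Ab1, H2-Eb1, H2-DMb2, H2-Oa and Ciita), and without tumor 2, 5 passed as lower (H2-DMa, H2-DMb1, H2-Oa, H2-Ob and Ciita). Of all genes, 9.84% passed as higher without tumor 1 and 22.9% as lower without tumor 2. These fits set 1 tumor library against the single control library, and their spread is that of the UVB pair alone. They therefore do not test a difference between tumor and control. The log2 fold changes of H2-Oa and Ciita were 1.06 and 1.28 without tumor 1, and -0.80 and -0.41 without tumor 2. Both comparisons with the control share its single library.

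**Figure D3:**
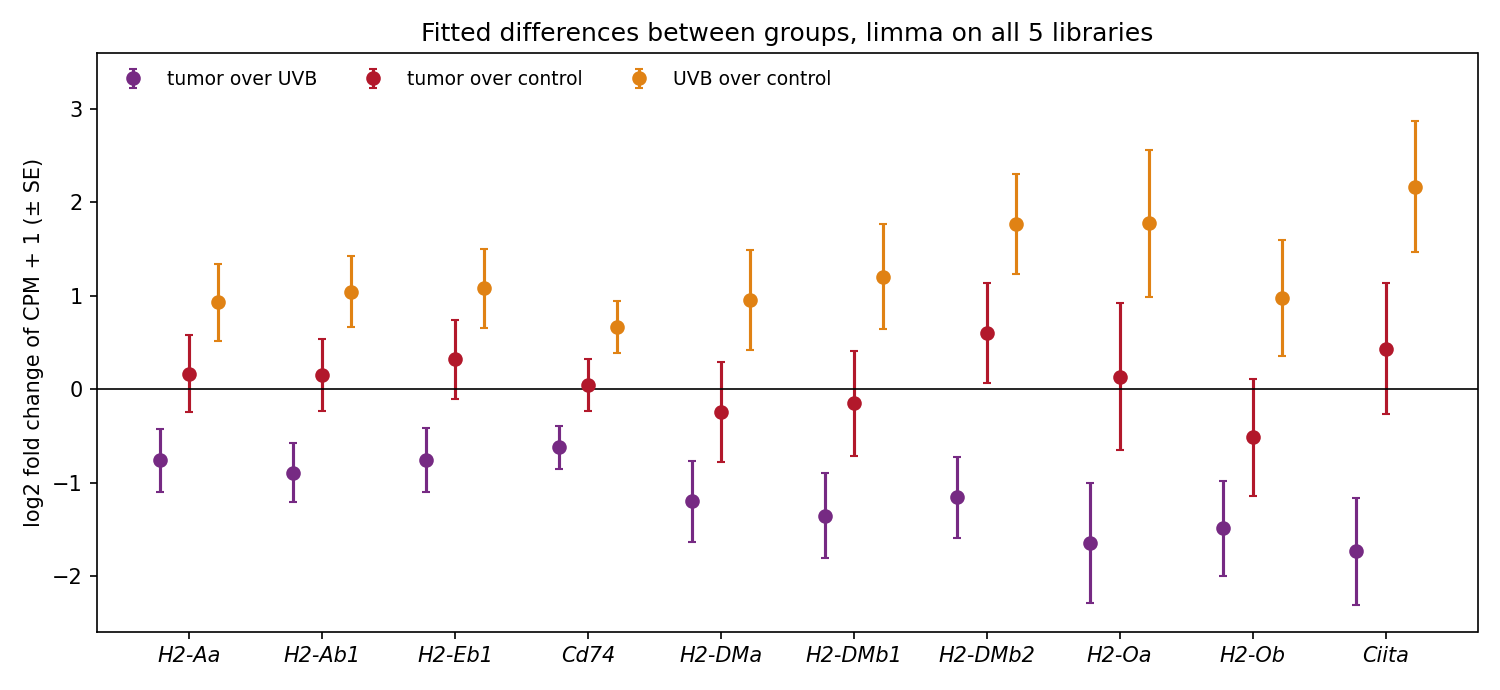
Log2 fold change of CPM + 1 (± SE) of each gene for tumor over UVB, tumor over control and UVB over control, from limma on all 5 libraries. The tumor over UVB values lie between -1.74 and -0.62, the tumor over control values on both sides of 0, and the UVB over control values between 0.67 and 2.17.

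Levels can be set between genes only per length of exon. On that scale Cd74 had the highest mean level over the libraries, 115 CPM per kb of annotated exon, followed by H2-Eb1 at 65.0, H2-Ab1 at 59.7 and H2-Aa at 36.2, and Ciita had the lowest, 12.99. With the longest coding transcript as length, chosen after the data were seen, Cd74 was still first and Ciita last, while the classical chains changed places. Counted as reads per base of exon, Cd74 reached 0.428 and 0.641 in the tumor libraries, 0.775 and 0.813 in the UVB libraries and 0.522 in the control. The highest densities, defined above, were 1.05 and 1.14 in the tumor libraries, 0.955 and 1.07 in the UVB libraries and 1.03 in the control. Cd74 came nearer to them in the UVB libraries than in the tumor libraries or the control. Across the 10 genes Spearman's rho between reads per base and the UVB to control ratio was -0.55, and -0.78 with the transcript length, a description over genes that share the same libraries. Whether the narrow range of read densities affected the ratio of Cd74 was not tested.

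**Figure D4:**
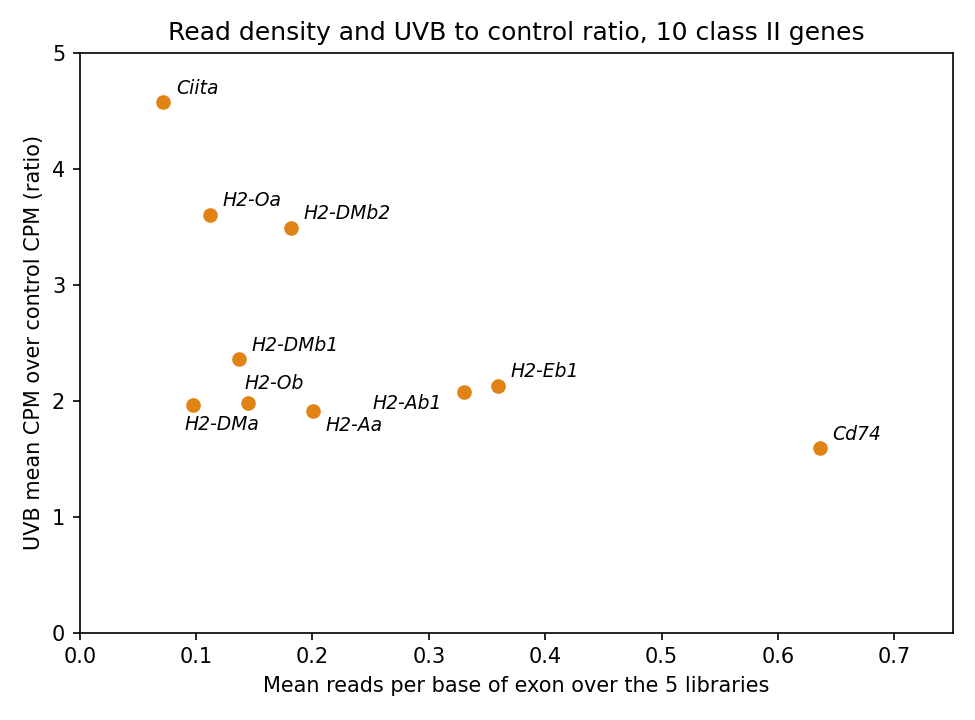
Mean reads per base of exon over the 5 libraries (x axis) and UVB mean CPM over control CPM (y axis, ratio) for the 10 genes, each a point. Cd74 has the highest density, 0.636, and the smallest ratio, 1.59, and Ciita the lowest density, 0.0719, and the largest ratio, 4.57.

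Some members overlap other genes, and the strand setting of the counting is not given in the sources used here. H2-DMa shares 360 exon bases with Brd2 on the other strand, which had between 326 and 371 CPM in the libraries. Ciita shares 329 exon bases with Dexi on the other strand, which had 12.4 and 21.9 CPM in the tumor libraries, 33.3 and 33.4 CPM in the UVB libraries and 15.9 CPM in the control. H2-Oa shares 321 exon bases with the antisense gene BC051537, at most 2.78 CPM in any library. Reads of such a pair cannot be told apart without strand.

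The other class II loci were nearly silent except for H2-Eb2. H2-Eb2 had 8.52 and 38.2 CPM in the tumor libraries, 55.3 and 55.7 CPM in the UVB libraries and 6.80 CPM in the control. Its log2 fold change for UVB over control was 2.86 (limma adjusted p 0.241), larger than that of any member, and it passed in no comparison. H2-Ea-ps, the row of the silenced alpha chain, had 0 and 4 reads in the tumor libraries, 2 and 4 in the UVB libraries and 0 in the control, and H2-Pb had 0 reads in every library.

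Of 25 regulators of class II genes, 24 passed the filter on low values, and none passed the test against the control. In tumor over UVB 5 of 24 were called as lower and 0 as higher, where 4.70% of all genes were called as lower, and the median log2 fold change of the 24 was -0.74. Among those called were Zbtb32 and Prdm1, repressors known to act on Ciita in B cells and plasma cells, and the transcription factors Usf1 and Irf2. Prdm1 had 9.58 and 17.4 CPM in the tumor libraries, 47.8 and 42.6 CPM in the UVB libraries and 18.1 CPM in the control (tumor over UVB -1.73, limma adjusted p 0.0365). Rfx5, a subunit of the RFX complex chosen after its values were seen, had 12.95 and 36.5 CPM in the tumor libraries, 55.7 and 66.4 CPM in the UVB libraries and 46.0 CPM in the control. Ifng, the gene of interferon gamma, had at most 2 reads in any library.

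None of the 16 genes of class II antigen processing passed in any comparison. Their median log2 fold change was 0.29 for UVB over control, -0.10 for tumor over control and -0.43 for tumor over UVB. In UVB over control 16 of 16 lay above 0, against 43.2% of all genes. So did 16 of 16 erythroid markers and 10 of 10 class I presentation genes. Ctsb, a lysosomal cysteine protease, had 356 and 403 CPM in the tumor libraries, 544 and 495 CPM in the UVB libraries and 424 CPM in the control. March8, a ubiquitin ligase that acts on class II molecules, varied less, between 409 and 511 CPM. Of 8 genes listed as class II partners, 1 was called as lower in tumor over UVB, against 4.70% of all genes. This was Cd4 (log2 fold change -2.01, limma adjusted p 0.0461), with 9.22 and 21.3 CPM in the tumor libraries, 70.0 and 51.2 CPM in the UVB libraries and 98.9 CPM in the control. The other 7 partners passed in no comparison.

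Class I presentation genes, which most cells use for peptides from the cytosol, differed from the class II genes in where the control stood. Their 10 genes summed to 776 and 1058 CPM in the tumor libraries, 1540 and 1390 CPM in the UVB libraries and 1318 CPM in the control, so the control lay above both tumor libraries. The class II members summed to 509 and 1067 CPM in the tumor libraries, 1582 and 1462 CPM in the UVB libraries and 695 CPM in the control. None of the class I genes passed in any comparison, and a difference between the class I and class II sets was not tested. Nlrc5, the relative of Ciita that drives class I genes, named after its values were seen, had 15.3 and 59.7 CPM in the tumor libraries, 140.4 and 130.0 CPM in the UVB libraries and 120.3 CPM in the control.

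Markers of cells that carry class II are given beside the class II genes, and in bulk RNA fewer cells of a type and less RNA per cell cannot be told apart. B cell markers had reads in every library for 15 of 15 genes, none was called, and their median log2 fold change was 0.63 for UVB over control, -0.44 for tumor over control and -1.17 for tumor over UVB. Above 0 were 13, 4 and 0 of the 15 in these comparisons. Cr2, the complement receptor of mature B cells, had 86.9 and 358 CPM in the tumor libraries, 504 and 505 CPM in the UVB libraries and 26.3 CPM in the control, and in it both tumor libraries lay above the control. Cd22, an inhibitory receptor of B cells, had 78.1 and 237 CPM in the tumor libraries, 345 and 341 CPM in the UVB libraries and 142 CPM in the control. The sum of the class II members over the sum of the B cell markers was 0.697 and 0.503 in the tumor libraries, 0.515 and 0.506 in the UVB libraries and 0.426 in the control. The part of B cells in the class II values was not tested.

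All 7 marker genes of B cell precursors had lower values in each spleen library than in the marrow library. Of these 7, 5 were called as lower both in tumor over control and in UVB over control, against 2.59% and 2.15% of all genes. Igll1, part of the surrogate light chain of pre-B cells, had 0.355 and 1.81 CPM in the tumor libraries, 0.595 and 0.503 CPM in the UVB libraries and 166 CPM in the control, while Vpreb2 had 0 reads in all 4 spleen libraries and 67 in the control. The summed level of the 7 genes was 2.13 and 23.0 CPM in the tumor libraries, 8.92 and 7.21 CPM in the UVB libraries and 1108 CPM in the control.

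Macrophage markers, 13 genes with reads in every library, summed to 1487 and 2217 CPM in the tumor libraries, 3761 and 3345 CPM in the UVB libraries and 2851 CPM in the control. Of these, 2 (Siglec1 and Vsig4) were called as lower in tumor over control, against 2.59% of all genes. In tumor over UVB 5 (Siglec1, Mertk, Vsig4, C1qc and Axl) were called as lower, against 4.70% of all genes. The median log2 fold change of the 13 was 0.29 for UVB over control (11 of 13 above 0), -0.62 for tumor over control (1 of 13) and -0.99 for tumor over UVB (0 of 13). Mertk, a receptor for the clearance of dying cells, had 104 and 178 CPM in the tumor libraries, 364 and 350.0 CPM in the UVB libraries and 228 CPM in the control. Siglec1, the sialoadhesin of resident macrophages, had 19.3 and 33.8 CPM in the tumor libraries, 162 and 177 CPM in the UVB libraries and 368 CPM in the control, which was the highest of the libraries for that gene. Dendritic cell markers, 10 genes of which 9 passed the filter, summed to 146 and 187 CPM in the tumor libraries, 282 and 204 CPM in the UVB libraries and 127 CPM in the control. Of the 9, 6 lay above 0 in UVB over control (median log2 fold change 0.96), 4 in tumor over control (-0.24) and 1 in tumor over UVB (-1.23). This last, Zbtb46, was called as higher, as were 12.3% of all genes. Cd209a had 0 reads in tumor 1 and Clec10a 0 in tumor 2. Itgax, the integrin CD11c, had 22.7 and 61.9 CPM in the tumor libraries, 102 and 78.9 CPM in the UVB libraries and 15.5 CPM in the control. Monocyte markers summed to 84.6 and 123 CPM in the tumor libraries, 177 and 333 CPM in the UVB libraries and 179 CPM in the control. Of the 6 genes, 1 (F13a1) was called as lower in all 3 comparisons. The shares of all genes called as lower were 2.15% in UVB over control, 2.59% in tumor over control and 4.70% in tumor over UVB. T cell markers summed to between 20.05 and 74.4 CPM, and 6 of 9 were at 0 reads in 1 or more libraries. The part of these cells in the class II values was not tested.

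**Figure D5:**
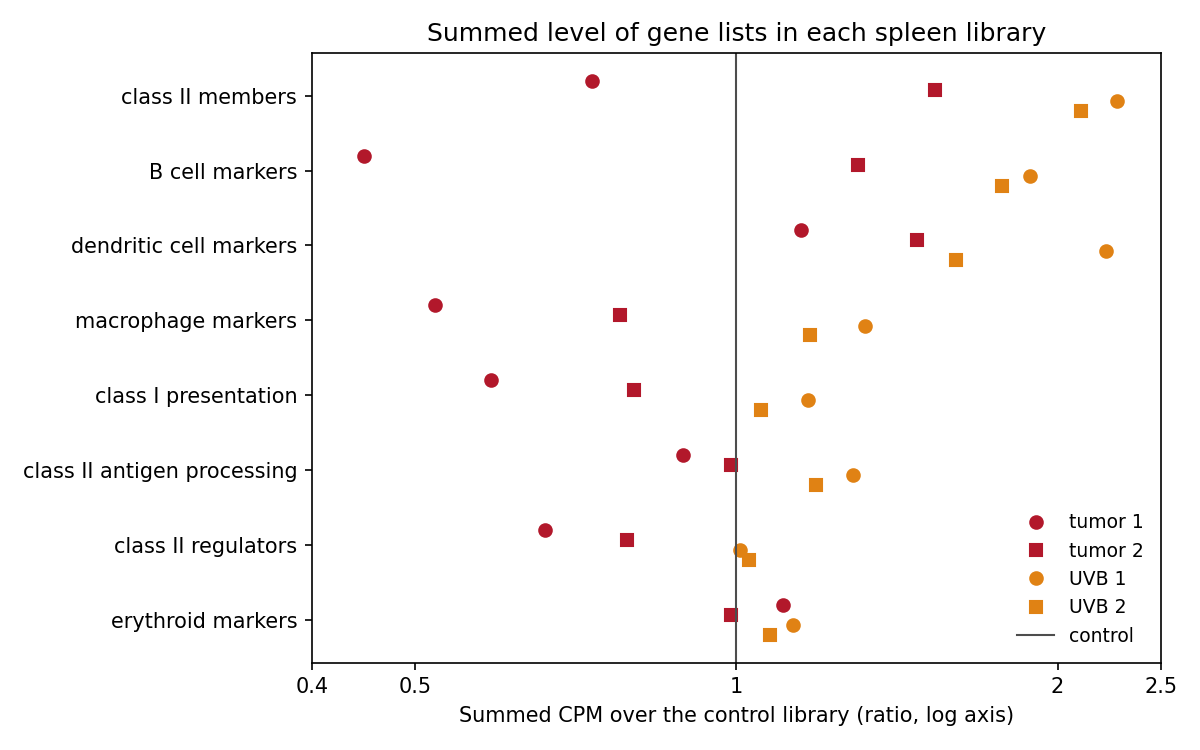
Summed CPM of each gene list in tumor 1, tumor 2, UVB 1 and UVB 2, divided by its sum in the control (log axis); the vertical line marks the control. The class II members lie at 0.732 and 1.53 in the tumor libraries and at 2.28 and 2.10 in the UVB libraries, and the erythroid markers between 0.989 and 1.13.

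The genes most like the members were sought among 9593 other genes averaging 10 CPM or more, by the root mean square difference of centred log2(CPM + 1) over the 5 libraries. Nearest to the mean profile of H2-Aa, H2-Ab1, H2-Eb1 and Cd74 were Lilrb4, Slc30a7, Mblac2, Pde4a, Pced1a and Swap70, at a distance of 0.0625 to 0.0806. Lilrb4, an inhibitory receptor of myeloid cells, had 22.5 and 44.9 CPM in the tumor libraries, 56.9 and 56.0 CPM in the UVB libraries and 27.9 CPM in the control. Nearest to Ciita were Slc41a2, Lag3, Rasgrp3, Bcl2, Rap1gap and Dgki, at 0.104 to 0.128. Lag3, which encodes a receptor for MHC class II, had 8.69 and 29.1 CPM in the tumor libraries, 50.4 and 58.0 CPM in the UVB libraries and 13.8 CPM in the control. Among the members H2-Oa came closest to Ciita, at a distance of 0.155, and would stand at place 16 in that order, while Cd74 would stand at place 871. In the order of the mean profile of the classical chains and Cd74, the other members stood further off. H2-DMa would stand at place 240, H2-DMb1 at 490, H2-DMb2 at 732, H2-Ob at 1355, H2-Oa at 3732 and Ciita at 5049.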

How the data were processed

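RNA of CD71-selected cells was sequenced in 5 libraries. Per the submitters' processing notes, reads were aligned with STAR and counted with HTSeq on mm10; their versions, the annotation, strand setting and duplicate removal are not given in sources used here. The deposited values are linear CPM: as the values show, the authors added 1 read to every gene and scaled each library to 1000000. All values (100%) were whole multiples of 1 read (relative tolerance 1e-06), which recovered the reads, and the 15006 genes averaging 1 CPM or more were tested. The deposited CPM were converted here to log2(CPM + 1) and tested with limma 3.58.1 (trend, two-sided, 2 residual degrees of freedom) in R 4.3.3, with Benjamini-Hochberg adjustment over all genes tested and a threshold of 0.05. edgeR 4.0.16 quasi-likelihood was run on the recovered reads. Other alternatives were the pseudocount, the filter, TMM scaling, a replicate block and leaving out each spleen library. The scripts were tested on simulated data.

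The control values were identical in both deposited tables. Of 141 list entries 139 were matched, by symbol or, for renamed genes, by GENCODE M21 identifier. The members and lists were chosen with earlier results of these data known. All members are given; from each list up to 4 genes are named, those called with the smallest adjusted p and then those with the highest mean CPM, except that genes named for completeness of a called count, for reads at 0 (Ifng, Cd209a, Clec10a) or as Rfx5 and Nlrc5 were picked after their values were seen. Some listed genes are not reported here. Precision is set by depth, between 5003923 and 5921270 reads per library, and by the number of libraries.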

Additional observations from a re-analysis of the deposited data

How the results depend on the processing

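No member was called in the 3 comparisons under pseudocounts of 0.25 and 4, no filter, a mean of at least 5 CPM, TMM scaling or edgeR, and the members' directions were the same as reported under these 6. The number of all genes called moved more. For UVB over control (349) it was 101 with pseudocount 0.25, 541 with no filter, 67 at 5 CPM and 116 with edgeR. For tumor over control (569) it was 232 with pseudocount 0.25, 70 at 5 CPM and 192 with edgeR, and for tumor over UVB (2557) it was 1556 with no filter. Leaving out each spleen library in turn gave 0 to 3056 genes for UVB over control, 0 to 5383 for tumor over control and 0 to 7888 for tumor over UVB, with 1 residual degree of freedom, so that after a tumor library is left out the spread is that of the UVB pair alone. Members called ranged from 0 to 10, 0 to 6 and 0 to 10 in the same order of comparisons. In tumor over control, directions turned with the tumor library left out: the log2 fold change ranged from -0.26 to 0.35 for Cd74, -0.41 to 1.28 for Ciita, -0.32 to 0.64 for H2-Aa, -0.29 to 0.59 for H2-Ab1, -0.17 to 0.81 for H2-Eb1, -0.87 to 0.38 for H2-DMa, -0.80 to 0.50 for H2-DMb1, -0.025 to 1.24 for H2-DMb2, -0.80 to 1.06 for H2-Oa and -1.26 to 0.23 for H2-Ob, and their median from -0.36 to 0.62.

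Replicate numbers are shared between the spleen groups but pair nothing in the labels. Over 15006 genes the deviations of UVB 1 and tumor 1 from their group means correlated at -0.11. With the replicate block, 0 genes and 0 members were called in each comparison. With crossed numbers as the block, added after seeing the data, 250, 400 and 2929 genes were called for UVB over control, tumor over control and tumor over UVB, and 1 member (H2-Ob, adjusted p 0.0494) in the last. At these depths H2-Oa rested on 39 reads in tumor 1, the fewest of any member. The cause of these changes was not tested.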
